A study of Mus musculus with 18 samples.

Results

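Medium spiny neurons are the projection neurons of the striatum, the input nucleus of the basal ganglia, which lies deep in the forebrain. They receive glutamate from cortex and thalamus and dopamine from the midbrain. Those of the direct pathway carry the dopamine D1 receptor and the neuropeptide substance P, and those of the indirect pathway carry the dopamine D2 receptor and an adenosine receptor, Adora2a. Dopamine acts on both through cyclic AMP (cAMP) and the protein kinase it activates. The 9 genes described here were listed by symbol as genes of these neurons (Drd1, Drd2, Adora2a, Ppp1r1b, Rgs9, Rasd2, Tac1, Gpr6 and Pde10a) and were matched to the gene identifiers of the count table by GENCODE M21. All 9 were found, out of 53468 genes in the table.

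Poly(A) RNA was sequenced from the forebrain, the midbrain and the hindbrain of wild-type mice and of Fmr1CRE mice at postnatal day 25 (P25). Fmr1CRE mice carry a single knock-in variant, made by genome editing, in a cis-regulatory element of Fmr1. The mice came from the same litter, 3 of each genotype, and each gave 1 library per region, so that the 18 libraries form 6 groups of 3. Fmr1 itself had group means between 58.2 and 77.7 CPM (reads of a gene scaled to a common library total), and the variant is not a knockout that its level could check.

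The libraries held 22455512 to 28061185 counts on genes. All levels below are CPM after TMM scaling over the 18 libraries. The chi-square per gene between any 2 libraries of a group was at least 12.2, where sampling noise alone gives about 1. The genotype labels of the forebrain libraries numbered 3 are in doubt. Genes on in 1 mouse and off in the mouse of the same number and other genotype, in both midbrain and hindbrain, should keep that direction in forebrain. Of 8 such genes for the mice labelled 1, 7 kept it and 1 went the opposite way. Of 12 for the mice labelled 2, 5 kept it and 4 went the opposite way, which does not settle their labels. Of 14 for the mice labelled 3, 2 kept it and 7 went the opposite way. Genotype values in forebrain are therefore given with and without both libraries labelled 3. The libraries labelled 2 were left out singly but not as a pair. The forebrain libraries also differed in hypothalamic genes, and the midbrain libraries held cortical and cerebellar genes.

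The promoter windows of 4 members are shown as a description. The members rise and fall together across libraries, as given below, and any part of these sequences in that was not tested. They are RefSeq sequences of GRCm38.p6, the 250 bases before an annotated start, in the direction of transcription. Capitals mark matches, on either strand, to 7 motifs: the cAMP response element TGACGTCA, its half-site TGACG (which overlaps it), the GC box GGGCGG, the TATA box TATAAA, the nuclear receptor half-site AGGTCA, the Meis motif TGACAG and the CCAAT box CCAAT.
Gpr6, chr10:41072291-41072540, minus strand: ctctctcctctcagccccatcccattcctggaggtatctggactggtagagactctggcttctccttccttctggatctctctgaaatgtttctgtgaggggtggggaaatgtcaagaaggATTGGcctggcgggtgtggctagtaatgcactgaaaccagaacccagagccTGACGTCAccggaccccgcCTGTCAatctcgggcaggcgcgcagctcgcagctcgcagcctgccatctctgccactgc
Tac1, chr6:7554811-7555060, plus strand: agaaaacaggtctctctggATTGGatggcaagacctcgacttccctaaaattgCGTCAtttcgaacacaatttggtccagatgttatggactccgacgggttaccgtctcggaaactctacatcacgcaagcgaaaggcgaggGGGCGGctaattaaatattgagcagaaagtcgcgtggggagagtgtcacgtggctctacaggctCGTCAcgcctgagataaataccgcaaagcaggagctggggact
Drd1, chr13:54055659-54055908, minus strand: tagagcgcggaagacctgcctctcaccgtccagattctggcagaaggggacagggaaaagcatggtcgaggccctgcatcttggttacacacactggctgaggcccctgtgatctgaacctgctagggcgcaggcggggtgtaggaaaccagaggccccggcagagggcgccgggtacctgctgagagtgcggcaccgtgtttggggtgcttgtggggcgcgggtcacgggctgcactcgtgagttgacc
Drd2, chr9:49340153-49340402, plus strand: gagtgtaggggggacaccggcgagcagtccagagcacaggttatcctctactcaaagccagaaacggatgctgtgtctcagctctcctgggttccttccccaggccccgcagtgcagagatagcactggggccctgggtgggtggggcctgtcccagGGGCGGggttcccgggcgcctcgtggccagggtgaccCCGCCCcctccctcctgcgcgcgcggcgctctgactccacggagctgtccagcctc
The Gpr6 window held the full cAMP response element starting 78 bases before the start, a sequence found in 1.55% of the 32851 RefSeq promoters of this length, together with a Meis motif (15.9% of promoters) and a CCAAT box (33.8%). Tac1 held half-sites of the cAMP response element at 197 and 43 bases before the start (17.8% of promoters), a GC box at 107 (32.7%) and a CCAAT box at 231. Drd2 held GC boxes at 93 and 56 bases, and the Drd1 window shown held none of the 7 motifs. A second annotated Drd1 window, chr13:54054781-54055030, held a GC box at 133 bases before its start. GC content was 58.4% for Gpr6, 51.2% for Tac1, 64.0% for Drd1 and 68.8% for Drd2, against a median of 52.4% over all promoters. RefSeq windows were matched for 7 of the 9 members. Those of Rgs9, Rasd2 and Pde10a are not shown, and the Rasd2 window held none of the 7 motifs. Adora2a and Ppp1r1b are named only. A match is a description of letters, and no binding was measured.

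All 9 members were higher in forebrain than in hindbrain, and 26.4% of the 20363 genes tested were called higher in that direction (edgeR, adjusted p under 0.05). In 9 of 9 members every forebrain library lay above every hindbrain library, which held for 14.7% of all genes. With a log2 fold change of at least 2 required as well, 8 members passed, against 3.8% of genes. The median log2 fold change of the members was 3.20, and that of all genes tested was -0.01. No member was called lower in forebrain than in hindbrain (25.3% of genes, and 2.81% with a log2 fold change of at most -2). All 9 were also higher in forebrain than in midbrain (9.38% of genes), 5 of them by at least 2 on the log2 scale (0.363% of genes), with a median of 2.18 against 0.02, and in 6 of 9 the libraries did not overlap (5.1% of genes). None was lower (9.96% of genes, 0.874% by at least 2). With the Fmr1CRE libraries alone 4 of 9 kept the call against midbrain, and Drd1, Drd2, Adora2a, Tac1 and Gpr6 did not. In that smaller fit 219 of 19434 genes were called higher, against 1911 of 20363 with all libraries. With the wild-type libraries alone, also 9, all 9 members kept the call, and 840 of 19442 genes were called higher. Midbrain stood above hindbrain for 7 of 9 members (25.1% of genes), 3 of them by at least 2 (2.39% of genes), with a median of 1.23 against -0.03, and again 6 of 9 did not overlap (16% of genes). None was called lower (24% of genes, 1.86% by at least 2). Scaled by total counts alone, which moved the median of all genes for forebrain against hindbrain to -0.15, 4349 genes were called higher in forebrain and 6819 lower in place of 5383 and 5147. Against midbrain 1391 were higher and 2926 lower in place of 1911 and 2028, and the same 9, 9 and 7 members were called. Bulk RNA cannot tell fewer cells of a type from less RNA per cell.

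**Figure D1:**
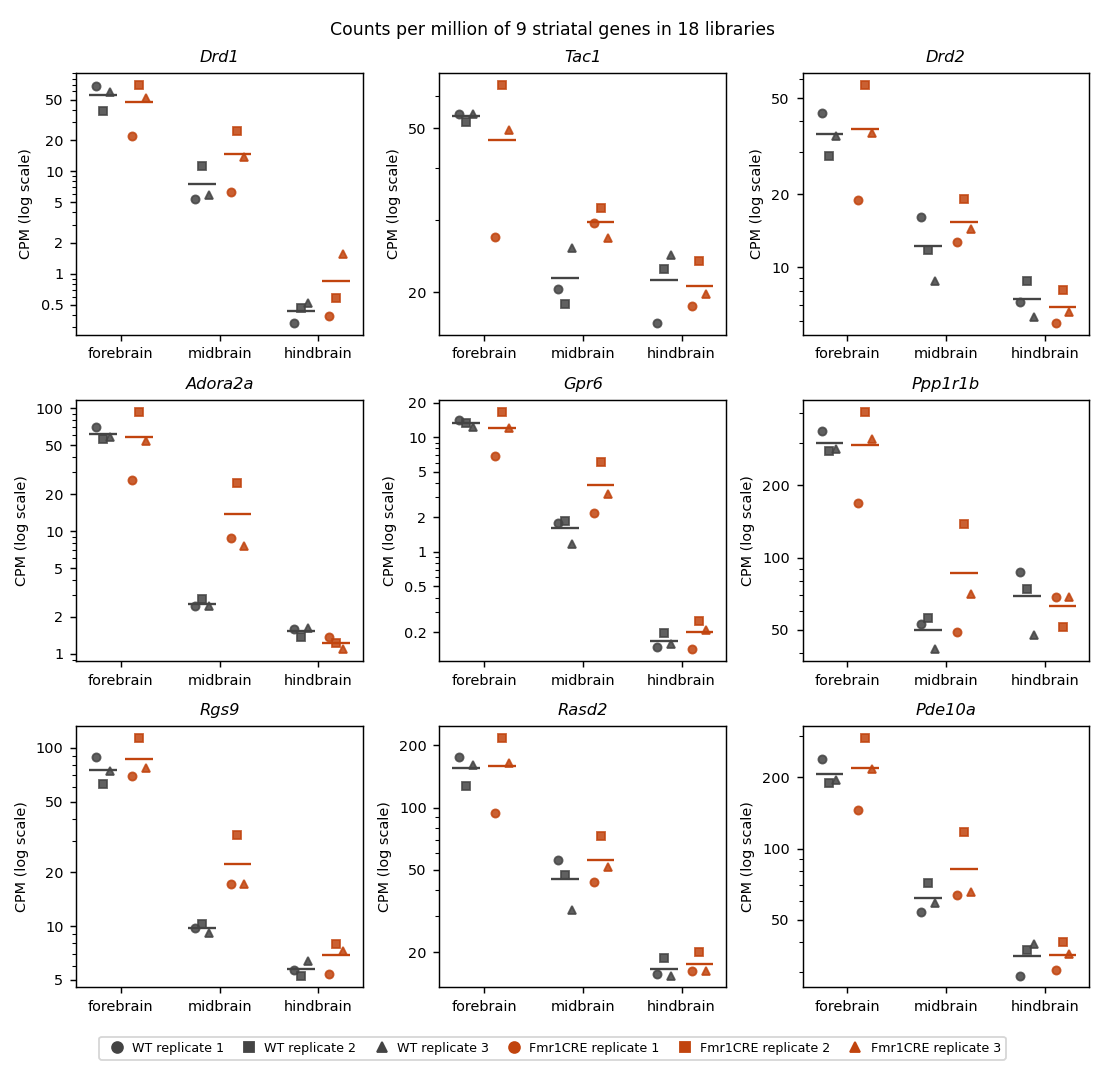
Level of each of the 9 genes in each library (CPM, log axis), by region. Gray marks are wild-type and orange marks Fmr1CRE libraries, the shape gives the replicate number, and bars are group means. Every gene is highest in forebrain, and in forebrain the Fmr1CRE replicate 1 library is the lowest mark for 8 of the 9 genes and the Fmr1CRE replicate 2 library the highest for all 9.

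Drd1 encodes the D1 receptor, which raises cAMP in direct-pathway neurons (chr13:54051183-54055705 on GRCm38, minus strand). In forebrain it stood at 68.3, 38.8 and 59.2 CPM in wild-type replicates 1, 2 and 3 and at 21.8, 69.2 and 52.0 CPM in Fmr1CRE replicates 1, 2 and 3, an order kept for all values below. In midbrain it stood at 5.40, 11.2 and 5.82 CPM in wild type and 6.27, 24.5 and 13.6 CPM in Fmr1CRE mice. The highest midbrain library, Fmr1CRE replicate 2, was above the lowest forebrain library, Fmr1CRE replicate 1, so these regions overlapped. In hindbrain Drd1 was near the floor, at 0.334, 0.462 and 0.514 CPM in wild type and 0.391, 0.577 and 1.56 CPM in Fmr1CRE, which is 9 to 37 reads a library. The log2 fold change was 6.41 (SE 0.46) between forebrain and hindbrain, rank 42 of 20363 genes. It was 2.29 (SE 0.35) between forebrain and midbrain and 4.13 (SE 0.44) between midbrain and hindbrain.

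Tac1 encodes the precursor of substance P and neurokinin A, the peptides of direct-pathway neurons, and is used by other neurons of brainstem and hypothalamus as well (chr6:7554879-7565834, plus strand). Its forebrain levels were 54.3, 52.0 and 54.2 CPM in wild type and 27.2, 63.7 and 49.6 CPM in Fmr1CRE. Midbrain gave 20.4, 18.7 and 25.7 CPM and 29.5, 32.0 and 27.1 CPM, and hindbrain 16.8, 22.8 and 24.6 CPM and 18.5, 23.7 and 19.8 CPM. The highest midbrain library passed the lowest forebrain library, and midbrain and hindbrain overlapped. Tac1 had the smallest regional differences of the 9, at 1.25 (SE 0.16) for forebrain against hindbrain and 0.99 (SE 0.16) for forebrain against midbrain on the log2 scale (adjusted p = 9.02e-06 and 5.35e-04). Between midbrain and hindbrain the difference was 0.26 (SE 0.16), with a 95% interval of -0.08 to 0.61 and an adjusted p of 0.193.

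Drd2 encodes the D2 receptor, which lowers cAMP in indirect-pathway neurons and is also the autoreceptor of the midbrain dopamine neurons (chr9:49340627-49408177, plus strand). It stood at 43.2, 28.7 and 34.8 CPM in wild-type forebrain and 19.0, 56.5 and 35.8 CPM in Fmr1CRE forebrain. The midbrain levels were 16.1, 11.8 and 8.77 CPM and 12.7, 19.2 and 14.4 CPM, where the highest library just passed the lowest forebrain library (19.2 against 19.0 CPM). Hindbrain levels were 7.16, 8.81 and 6.25 CPM and 5.90, 8.05 and 6.53 CPM. The log2 fold change of forebrain was 2.35 (SE 0.23) against hindbrain and 1.40 (SE 0.22) against midbrain, and that of midbrain against hindbrain was 0.95 (SE 0.23) with an adjusted p of 0.00268. The midbrain libraries also carried the dopamine neuron markers, 10 of 10 of which were lower in forebrain than in midbrain (9.96% of genes). These markers summed to 342 to 450 CPM in midbrain and to 386 to 473 CPM in hindbrain. The midbrain library with the most Drd2, Fmr1CRE replicate 2, had the lowest midbrain sum, 342 CPM. The part of dopamine neurons in the Drd2 level was not tested.

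Adora2a encodes the adenosine receptor that raises cAMP in indirect-pathway neurons (chr10:75316877-75334784, plus strand). Its forebrain levels were 70.3, 56.3 and 58.6 CPM in wild type and 26.1, 93.9 and 53.9 CPM in Fmr1CRE, a spread of 26.1 to 93.9 CPM that lay wholly above midbrain. In midbrain the wild-type libraries gave 2.44, 2.82 and 2.47 CPM, within a narrow range, and the Fmr1CRE libraries 8.80, 24.8 and 7.59 CPM. Hindbrain gave 1.60, 1.39 and 1.62 CPM and 1.39, 1.23 and 1.09 CPM. Forebrain exceeded hindbrain by a log2 fold change of 5.44 (SE 0.35), rank 94 of 20363, and midbrain by 3.33 (SE 0.31), rank 29. Midbrain exceeded hindbrain by 2.11 (SE 0.34).

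Gpr6 encodes an orphan receptor coupled to the stimulatory G protein and found in indirect-pathway neurons (chr10:41069977-41072285, minus strand). It was the member with the lowest levels, at 14.1, 13.3 and 12.3 CPM in wild-type forebrain and 6.87, 16.8 and 12.1 CPM in Fmr1CRE forebrain. Midbrain held 1.79, 1.88 and 1.16 CPM and 2.20, 6.11 and 3.21 CPM, and all midbrain libraries stayed below all forebrain ones. In hindbrain 4 to 7 reads were counted in each library. The log2 fold change was 6.05 (SE 0.32) for forebrain against hindbrain, rank 58 of 20363, 2.34 (SE 0.25) against midbrain, and 3.71 (SE 0.32) for midbrain against hindbrain.

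Ppp1r1b encodes DARPP-32, which becomes an inhibitor of protein phosphatase 1 when the cAMP-dependent kinase phosphorylates it (chr11:98348404-98357796, plus strand). It was the most abundant member in forebrain, at 338, 278 and 284 CPM in wild type and 169, 405 and 312 CPM in Fmr1CRE. In midbrain it stood at 52.9, 56.1 and 41.6 CPM and 49.0, 138 and 70.5 CPM, and in hindbrain at 86.9, 73.7 and 47.5 CPM and 68.6, 51.6 and 68.3 CPM. The levels in hindbrain overlapped those in midbrain, where the receptors Drd1, Adora2a and Gpr6 did not. The log2 fold change of forebrain was 2.17 (SE 0.25) against hindbrain and 2.18 (SE 0.25) against midbrain, while midbrain against hindbrain gave -0.0074 with a 95% interval of -0.51 to 0.50 (adjusted p = 0.984).

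Rgs9 encodes a regulator of G-protein signalling that shortens signals of the D2 receptor (chr11:109225355-109298129, minus strand). It stood at 88.8, 62.6 and 74.6 CPM and 69.3, 114 and 77.3 CPM in wild-type and Fmr1CRE forebrain. In midbrain wild type gave 9.76, 10.3 and 9.11 CPM and Fmr1CRE 17.3, 32.6 and 17.3 CPM, so that every Fmr1CRE library was above every wild-type one. Hindbrain gave 5.68, 5.28 and 6.37 CPM and 5.37, 7.94 and 7.24 CPM. The log2 fold change of forebrain was 3.68 (SE 0.19) against hindbrain and 2.45 (SE 0.18) against midbrain, rank 69 of 20363 for the latter.

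Rasd2 encodes Rhes, a small GTPase of striatal neurons (chr8:75213944-75224113, plus strand). Its levels were 176, 127 and 161 CPM and 94.5, 217 and 163 CPM in forebrain, 55.5, 47.3 and 31.8 CPM and 43.7, 73.0 and 51.3 CPM in midbrain, and 15.6, 18.8 and 15.4 CPM and 16.1, 20.02 and 16.2 CPM in hindbrain, each time with wild type first. The regions came in descending order from forebrain to hindbrain without overlap. Pde10a encodes the phosphodiesterase that breaks down cAMP and cGMP in both kinds of medium spiny neuron (chr17:8525372-8986648, plus strand). It stood at 239, 189.6 and 195 CPM and 145, 294 and 216 CPM in forebrain, at 54.0, 71.8 and 58.7 CPM and 63.7, 117 and 65.7 CPM in midbrain, and at 29.0, 37.0 and 39.5 CPM and 30.5, 40.3 and 35.6 CPM in hindbrain. Its regions, too, did not overlap. On the log2 scale forebrain exceeded hindbrain by 3.20 (SE 0.20) for Rasd2 and 2.59 (SE 0.19) for Pde10a, and midbrain by 1.64 (SE 0.19) and 1.58 (SE 0.18).

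**Figure D2:**
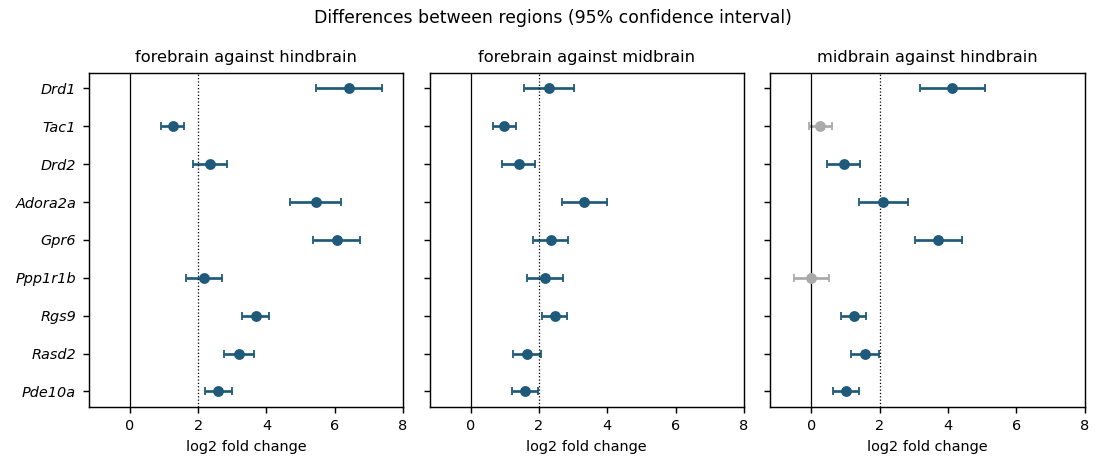
Log2 fold changes of the 9 genes between regions with their 95% intervals (edgeR). Gray points did not pass an adjusted p of 0.05, and the dotted line marks a log2 fold change of 2. Drd1, Gpr6 and Adora2a differ most between forebrain and hindbrain (6.41, 6.05 and 5.44), and the gray points are Tac1 and Ppp1r1b for midbrain against hindbrain (0.26 and -0.0074).

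Levels of different genes are compared per kilobase of effective transcript length. In forebrain the mean and SD over 6 libraries were 205 ± 53.7 CPM per kb for Ppp1r1b, 107 ± 26.1 for Tac1, 54.1 ± 14.5 for Rasd2, 42.2 ± 9.98 for Pde10a and 36.6 ± 8.21 for Rgs9. The receptors came after them, with 24.2 ± 8.96 CPM per kb for Adora2a, 24.0 ± 8.56 for Drd1, 14.4 ± 5.07 for Drd2 and 6.73 ± 1.74 for Gpr6. The ranges of all neighbours in this order overlapped. Library by library, each gene nevertheless exceeded the next in 6 of 6 libraries, except Pde10a over Rgs9 in 5 and Adora2a over Drd1 in 3. In hindbrain, Ppp1r1b (45.5 CPM per kb) and Tac1 (44.9) headed the order and could not be ranked, and Adora2a (0.561), Drd1 (0.297) and Gpr6 (0.099) closed it.

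As a share of its own mean forebrain level, the midbrain level was 50.9% for Tac1, 38.0% for Drd2, 33.7% for Pde10a, 32.2% for Rasd2, 22.9% for Ppp1r1b, 21.6% for Gpr6 and for Drd1, 19.8% for Rgs9 and 13.6% for Adora2a. In hindbrain the shares spread further apart. Tac1 kept 41.9%, Ppp1r1b 22.2%, Drd2 19.6%, Pde10a 16.6% and Rasd2 10.9%, whereas Rgs9 kept 7.79%, Adora2a 2.31%, Gpr6 1.47% and Drd1 1.24%. The midbrain share of Adora2a ran from 4.08% to 41.4% over the 6 libraries, and that of Tac1 from 37.3% to 63.7%. The median share over the 9 members was 22.9% in midbrain, against 75.6% for 10 cortical projection neuron markers, 117% for 10 thalamic and 98.9% for 10 hypothalamic markers. In hindbrain the medians were 10.9% for the members, 13.7% for cortical, 34.0% for thalamic and 10.5% for hypothalamic markers. By these medians over both genotypes, the midbrain libraries held cortical, thalamic and hypothalamic markers at a larger part of their forebrain level than the members. The hypothalamic share pools unlike libraries. In wild type the hypothalamic sum was 7.84 to 23.4 CPM in midbrain and 59.1 to 108 CPM in forebrain, so the pooled share does not hold there. In Fmr1CRE it was 50.5 to 130 CPM in midbrain and 8.37 to 72.3 CPM in forebrain. The part of dissection borders in these shares was not tested.

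**Figure D3:**
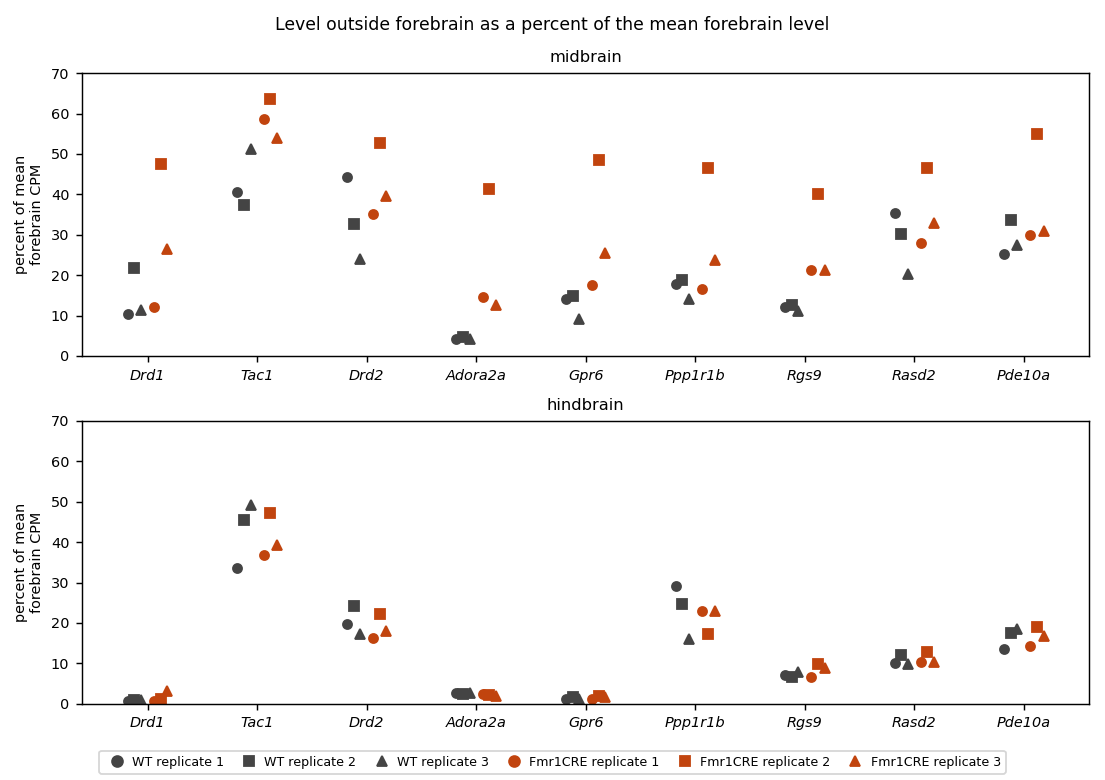
Level in each midbrain and hindbrain library as a percent of the gene's mean forebrain level, for the 9 genes. Each mark is 1 library. In midbrain the Fmr1CRE replicate 2 library is the highest mark for every gene, and in hindbrain Drd1, Gpr6 and Adora2a fall to means of 1.24% to 2.31%.

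The members were low and high in the same forebrain libraries. Fmr1CRE replicate 1 was the lowest forebrain library for 8 of 9 members, Rgs9 being lowest in wild-type replicate 2, and Fmr1CRE replicate 2 was the highest for 9 of 9. Against the mean of the other 5 forebrain libraries, Fmr1CRE replicate 1 held 38.0% of Drd1, 39.2% of Adora2a, 47.7% of Drd2, 49.7% of Tac1, 50.0% of Gpr6, 52.3% of Ppp1r1b, 55.9% of Rasd2, 64.1% of Pde10a and 83.2% of Rgs9. The median over 22 other striatal genes in this library was 57.1%, that over cortical projection markers 101%, that over thalamic markers 95.9% and that over all genes 93.0%. The medians of several other lists were low there as well. Hypothalamic markers were at 15.2%, cholinergic at 36.8%, dopamine neuron at 43.5% (7 of 10 genes) and olfactory bulb markers at 57.2%. The dopamine neuron sum was not low there, at 165 CPM against 122 to 152 CPM in wild-type forebrain. The hypothalamic sum in forebrain was 95.7, 108 and 59.1 CPM in wild-type replicates 1 to 3 and 8.37, 19.0 and 72.3 CPM in Fmr1CRE replicates 1 to 3. In the same order the cortical sum was 1323, 1415 and 1469 CPM and 1202, 1318 and 1402 CPM. Fmr1CRE replicate 2 held 134% to 177% of the members' levels in the other 5, with a median of 149% against 131% for other striatal genes. Olfactory bulb markers were also high there, at a median of 153%, while cholinergic markers were at 110%, cortical at 96.9%, cerebellar and brainstem at 78.9%, dopamine neuron at 68.2%, hypothalamic at 50.7% and thalamic at 50.0%. The part of these other cell types in the members' spread was not tested.

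In midbrain, Fmr1CRE replicate 2 was the highest library for 9 of 9 members. It held 514% of the mean of the other 5 for Adora2a, 298% for Gpr6, 290% for Drd1, 256% for Ppp1r1b and for Rgs9, 187% for Pde10a, 159% for Rasd2, 150% for Drd2 and 132% for Tac1. Other striatal genes had a median of 154%, hypothalamic markers 181%, olfactory bulb markers 140%, cerebellar and brainstem markers 129%, cortical markers 111% and all genes 101% in that library. Thalamic, cholinergic and dopamine neuron markers stood at 92.7%, 86.6% and 69.9%, and the part of these cell types was not tested. The lowest midbrain library was wild-type for all 9 members, namely replicate 3 for 5 of them, replicate 1 for 3 and replicate 2 for 1. The median share of the forebrain level over the members was 17.8%, 21.7% and 13.98% in wild-type midbrain replicates 1 to 3 and 21.3%, 47.6% and 26.5% in the Fmr1CRE ones.

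**Figure D4:**
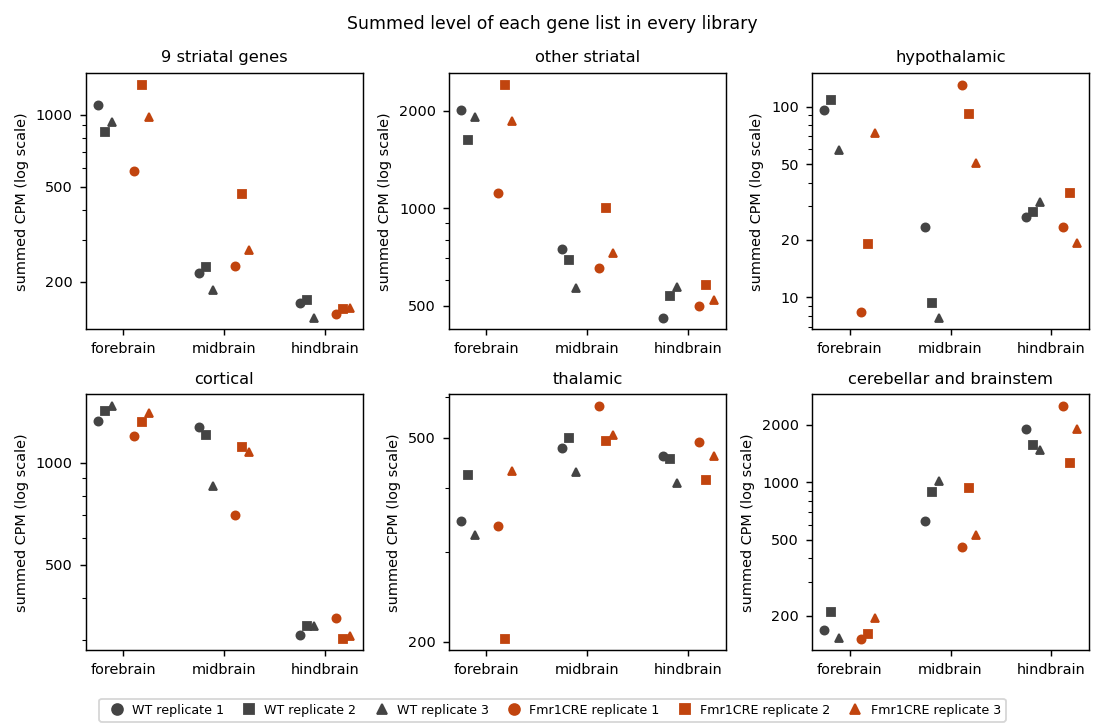
Summed level (CPM, log axis) of the 9 genes and of marker lists of other neurons, by library and region. In midbrain the Fmr1CRE libraries sum to 50.5 to 130 CPM for hypothalamic markers and the wild-type libraries to 7.84 to 23.4 CPM, while the cortical sums of the genotypes overlap.

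The ratios of Adora2a to Drd1 and to Drd2 were steadier in forebrain than in midbrain, whereas that of Gpr6 to Drd1 had similar ranges in both. Adora2a over Drd1, both per kb, lay between 0.863 and 1.27 in the 6 forebrain libraries although Drd1 itself varied 3.17-fold. In wild-type midbrain the ratio was 0.393, 0.219 and 0.369, and in Fmr1CRE midbrain 1.22, 0.879 and 0.484. Adora2a over Drd2 behaved likewise, from 1.40 to 2.00 in forebrain, from 0.155 to 0.287 in wild-type midbrain, and at 0.703, 1.32 and 0.537 in Fmr1CRE midbrain. Gpr6 over Drd1 lay between 0.238 and 0.395 in forebrain and between 0.193 and 0.403 in midbrain. Drd2 over Drd1 was 0.503 to 0.743 in forebrain, 0.667 to 2.54 in midbrain and 3.58 to 18.3 in hindbrain, where Drd1 rested on few reads.

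The genotype comparison asked whether the Fmr1 variant changes gene levels within a region. None of the 9 members was called different between genotypes in any region by edgeR. In midbrain all 9 were nominally higher in Fmr1CRE, with a median log2 fold change of 0.77 against about 0 for all genes, and 1 of 18400 genes (0.00543%) was called, the predicted gene Gm5436 (-6.20), named because no other was. Adora2a gave the largest value, 2.41 (SE 0.46), with a 95% interval of 1.35 to 3.47, an unadjusted p of 0.000872 and an adjusted p of 0.535. With any 1 library left out it ran from 1.67 to 2.70. Gpr6 followed with 1.26 (SE 0.40) and Rgs9 with 1.20 (SE 0.25) (adjusted p = 0.770 and 0.598). Drd1 stood at 0.99 (SE 0.48), Ppp1r1b at 0.77 (SE 0.34), Tac1 at 0.45 (SE 0.15), Pde10a at 0.42 (SE 0.24), Drd2 at 0.34 (SE 0.23) and Rasd2 at 0.32 (SE 0.24). Without Fmr1CRE replicate 2 all 9 were smaller, at 1.67 for Adora2a, 0.83 for Rgs9, 0.75 for Gpr6, 0.41 for Drd1, 0.39 for Tac1, 0.25 for Ppp1r1b, 0.16 for Drd2, 0.086 for Rasd2 and 0.073 for Pde10a, and without wild-type replicate 3 Drd2 was 0.15 and Rasd2 0.13. Without wild-type replicate 1 these 2 were 0.58 and 0.49. The genotypes did not overlap for 4 of 9 members, Adora2a, Rgs9, Gpr6 and Tac1, and for 11.3% of all genes. DESeq2 called Adora2a (log2 fold change 2.41, adjusted p = 3.03e-05) and Rgs9 (1.20, adjusted p = 0.0043), and 62 genes in all. Over all alternatives the adjusted p ran from 3.03e-05 to 0.999 for Adora2a and from 0.0043 to 0.999 for Rgs9.

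Hypothalamic markers moved with genotype in the same midbrain libraries. All 10 were nominally higher in Fmr1CRE, 8 with an unadjusted p under 0.05 and none called, with a median log2 fold change of 2.05. Over all genes 1135 of 18400 had such a p in midbrain. The summed level of the hypothalamic markers was 23.4, 9.39 and 7.84 CPM in wild type and 129.8, 91.6 and 50.5 CPM in Fmr1CRE. The members summed to 218, 232 and 185 CPM in wild type and 233, 467 and 271 CPM in Fmr1CRE. The order of the Fmr1CRE libraries thus differed, with replicate 1 highest for the hypothalamic sum and lowest for the members. Avp, the vasopressin precursor, stood at 0.697, 0.367 and 0.206 CPM in wild-type and 19.8, 18.5 and 6.50 CPM in Fmr1CRE midbrain. Pmch, the precursor of melanin-concentrating hormone, stood at 10.2, 0.490 and 0.240 CPM and 59.0, 35.4 and 25.3 CPM. Of the 10 markers, 1 was at 0 in 1 wild-type midbrain library. Cortical sums were 1273, 1208 and 857 CPM in wild type and 700.1, 1110.3 and 1073 CPM in Fmr1CRE midbrain, and 2 of 10 cortical markers were nominally higher in Fmr1CRE. Of the thalamic markers 8 of 10 were nominally higher, 4 with an unadjusted p under 0.05, with a median of 0.21 and sums of 478, 500.2 and 429 CPM in wild type and 577, 493 and 506 CPM in Fmr1CRE. Of the cerebellar and brainstem markers 2 of 10 were nominally higher, with a median of -0.38 and sums of 623, 894 and 1021 CPM and 456, 937 and 528 CPM. Among the other striatal genes 19 of 21 tested were nominally higher, 7 of them with an unadjusted p under 0.05, with a median of 0.32. The part of these cell types in the members' values was not tested.

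In forebrain 0 of 18467 genes were called (0%), with 1002 genes at an unadjusted p under 0.05 and 31 calls by DESeq2. The members ran from -0.19 for Drd1 to 0.24 for Rgs9 on the log2 scale, and the genotypes overlapped for all 9, against 10.2% of genes without overlap. Without both libraries labelled 3, no member was called either. The values were then -0.19 for Drd1, -0.18 for Tac1, 0.11 for Drd2, -0.036 for Adora2a, -0.17 for Gpr6, -0.056 for Ppp1r1b (0.0042 with them), 0.32 for Rgs9, 0.084 for Rasd2 and 0.083 for Pde10a. In hindbrain 0 of 19112 genes were called (981 at an unadjusted p under 0.05, 59 by DESeq2). Of the members, 8 were tested, since Gpr6 fell under the count filter, and they ran from -0.32 for Adora2a to 0.92 for Drd1, whose 95% interval was -0.36 to 2.19. Without Fmr1CRE replicate 3, the library with 37 Drd1 reads, this value was 0.14, and without both mice labelled 3 it was 0.26. The genotypes did not overlap for 1 of 9 members in hindbrain, Adora2a, whose lowest wild-type and highest Fmr1CRE libraries both stood at 1.39 CPM, and for 10.8% of genes.

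With the 3 regions of each mouse summed, 1 of 22191 genes (0.00451%) was called, Nhej1 (1.79), named for that reason, and no member, the members ranging from 0.03 to 0.39 (Rgs9). A genotype effect that differs between regions was called for 0 of 20363 genes by edgeR, with 1535 at an unadjusted p under 0.05 and 52 by DESeq2. Without both mice labelled 3, an alternative chosen after seeing the data, edgeR called 131 genes, with 4076 at an unadjusted p under 0.05, and no member. Among the members 3 had an unadjusted p under 0.05 in that test, Adora2a (0.000861), Rgs9 (0.0158) and Gpr6 (0.0293). DESeq2 called 1 member, Adora2a, with an adjusted p of 0.00498, and its adjusted p over all alternatives ran up to 0.967.

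**Figure D5:**
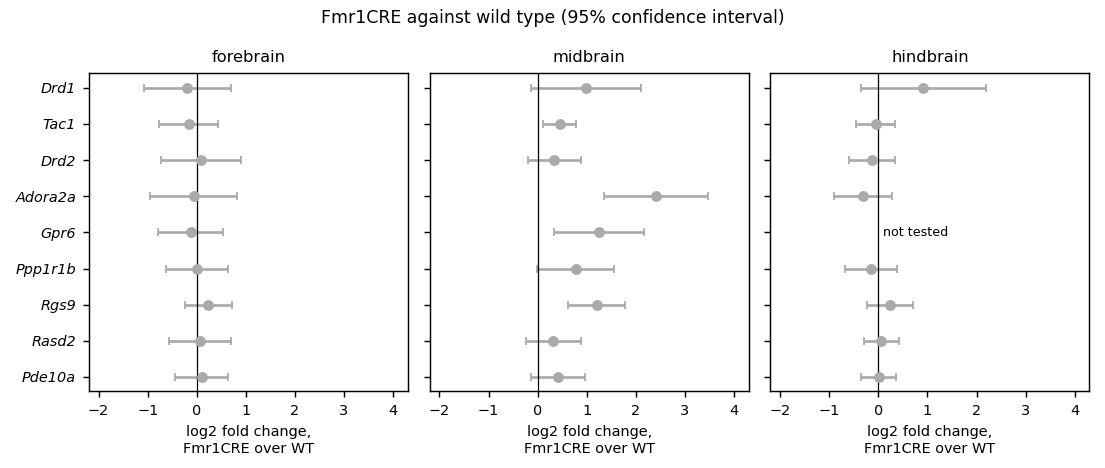
Log2 fold changes of Fmr1CRE against wild type for the 9 genes in each region, with 95% intervals (edgeR). No value passed an adjusted p of 0.05. In midbrain all values are above 0, led by Adora2a at 2.41, and in forebrain they lie between -0.19 and 0.24.

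Of a wider list of 23 other striatal genes, 21 were higher in forebrain than in hindbrain and 1 lower, and 14 passed a log2 fold change of 2, with a median of 2.56. Against midbrain 21 were higher and 1 lower, 5 passing 2, with a median of 1.28 (8 higher with the Fmr1CRE libraries alone). Ebf1, a transcription factor of direct-pathway neurons, was the lower one both times (-2.18 and -1.08) and is named because of its value. Penk, the enkephalin precursor of indirect-pathway neurons, stood at 225, 191 and 181 CPM and 107, 261 and 216 CPM in forebrain, and exceeded hindbrain by 1.08 and midbrain by 1.58 on the log2 scale. Scn4b, a sodium channel subunit, had 0.62 and 1.32, and Ptpn5, the phosphatase STEP, 1.55 and 0.59. For Penk, too, Fmr1CRE replicate 1 was the lowest forebrain library.

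Between midbrain and hindbrain 12 of the 23 were higher and 4 lower, the latter being Ebf1, Penk (-0.50), Ptpn7 (-0.97) and Scn4b (-0.70), again named for their values. The count of 4 fell to 2 when any 1 of 4 libraries was left out, wild-type midbrain replicate 3, Fmr1CRE midbrain replicates 1 and 3 or Fmr1CRE hindbrain replicate 3. Of the 24 genes listed, 1 was not matched to the table (Gpr52). No gene of this list was called between genotypes in any region.

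Among 25 genes of dopamine and cAMP signalling that are not restricted to the striatum, 21 were higher in forebrain than in hindbrain and none lower, 5 of them by at least 2 on the log2 scale (Pde2a, Gng7, Arpp21, Adcy5 and Cdk5r1), with a median of 0.94. Against midbrain 16 were higher and 2 lower, Drd5 (-0.57) and Prkaca (-0.54), with a median of 0.48 (4 higher with the Fmr1CRE libraries alone). Midbrain exceeded hindbrain for 18 and was lower for 2, Cdk5 (-0.21) and Drd4 (-0.85), and the count of 2 ran from 0 to 2 with 1 library left out, moving in 15 of 18 such fits, and was 1 with the mouse as a block. Arpp21, a further substrate of the cAMP-dependent kinase, averaged 511, 226 and 47.7 CPM from forebrain to hindbrain. Ppp3ca, a catalytic subunit of calcineurin, averaged 1029, 738 and 367 CPM. Prkacb and Prkar1b, subunits of the kinase itself, differed from midbrain by -0.16 and -0.11, which did not pass the test. No gene of this list was called between genotypes.

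Across the 18 libraries the genes outside the list whose log2 CPM most resembled the mean of the members were Dclk3 (Pearson r 0.989), Rxrg (0.988), Pde1b (0.985), Gng7 (0.983) and Pde7b (0.983), out of 20354 genes. With each gene's region mean taken off, which leaves only the spread between libraries of 1 region, the order changed to Penk (0.955), Gpr83 (0.879), Pdyn (0.875), Dclk3 (0.863) and Gm39043 (0.860). Dclk3 averaged 34.1, 16.1 and 7.82 CPM from forebrain to hindbrain, Rxrg 24.8, 7.03 and 2.75, Pdyn 35.9, 15.1 and 4.28, and Gpr83 31.2, 18.0 and 4.07. Gm39043 was near the floor, at 1.37, 0.096 and 0.0059 CPM, and left the leading 5 when a mean of at least 5 CPM was required. With region means taken off, the 36 pairs of members had r between 0.445 and 0.96, with a median of 0.711. Within hindbrain alone, 2 members ran against the mean of the other 8, Adora2a (r -0.80) and Ppp1r1b (r -0.53), whereas in forebrain they had r 0.982 and 0.988. These are descriptions over 18 or 6 libraries that share mice, depth and dissection.

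The transcript tables assign reads to the transcripts of each member. All reads of Drd2 and Gpr6 were assigned to a single transcript (median 100% over the transcript sets), and Adora2a-201 took 96.3% and 1 transcript of Rasd2 99.8%. The reads of Drd1 were split between Drd1-201 (86.1%) and a second transcript (10.8%). Ppp1r1b was split between Ppp1r1b-201 (49.5%) and a retained-intron transcript (38.4%), and Pde10a between Pde10a-205, annotated as a target of nonsense-mediated decay (60.3%), and another transcript (36.7%). Rgs9 was shared by 4 transcripts with 44.5%, 27.7%, 24.3% and 10.5%, and Tac1 by 3 with 43.4%, 41.6% and 15.1%. The sample record named the library whose gene counts the set matched in only 2 of 18 sets, while the name of the set itself did so in 18 of 18. Because these 2 labels disagreed, the shares were pooled over sets and not tied to region or genotype.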

How the data were processed

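Libraries were made from poly(A) RNA of dissected brain regions and sequenced as single-end reads in 2 pools, which the labels do not tie to samples. The authors counted reads with Salmon against mm10 (Salmon 0.14.0 and DESeq2 1.30.1 in the submitters' processing notes) and deposited a table of raw gene counts, used here for all levels and tests, and tables of expected counts per transcript, used only for transcript shares (sets with at least 100 counts on the gene) and effective lengths. Genes without a symbol held 0.0438% of counts.

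Levels are CPM with TMM scaling over 18 libraries. Tests were edgeR 4.0.16 quasi-likelihood tests in R 4.3.3 (limma 3.58.1) after filterByExpr, with Benjamini-Hochberg adjustment over all genes tested and a threshold of 0.05. Region comparisons used all 18 libraries in 6 groups and averaged the genotypes, and genotype comparisons used the 6 libraries of a region. The steps were tested on simulated counts. Depth was 22455512 to 28061185 counts per library. Members and lists were chosen with earlier results of these data known. The text names all members, Fmr1, at most 4 genes of each list by level in the list's own region, any striatal or signalling gene called between genotypes, and the 5 genes most like the members by each measure. Other names are marked as chosen for their values. One gene that this rule names is not reported here.

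The regions of a mouse share its number. Deviations from group means of the same mouse correlated between -0.17 and 0.178, and those of same-numbered mice of the 2 genotypes between -0.12 and 0.069. The mouse as a block is an alternative. Other alternatives were DESeq2 1.42.0, DESeq2 size factors or total counts in place of TMM, no filter, the genotypes apart, 1 fit for all libraries, each library left out and, for the interaction and the summed regions as a choice made after seeing the data, both mice labelled 3 left out. The 3 mice of a group are separate animals. Lists of other neurons (dopamine, cortical, thalamic, hypothalamic, olfactory bulb, cholinergic, cerebellar and brainstem) were set beside the members.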

Additional observations from a re-analysis of the deposited data

Results flagged for a closer look

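Over the 6 libraries of a region, 1 library stood apart from the other 5 by Dixon's criterion for 4 of 27 sets of member values. The members move together across libraries, so the 27 sets are not independent and the count cannot be set against a chance rate. Drd1 reached 1.56 CPM in hindbrain Fmr1CRE replicate 3, on 37 reads. In forebrain Fmr1CRE replicate 1, Tac1 was at 27.2 CPM and Gpr6 at 6.87 CPM, the lowest of each. Pde10a was at 117 CPM in midbrain Fmr1CRE replicate 2, the highest there.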

How the results depend on the processing

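Without mice 3, edgeR called 131 genes in the interaction in place of 0. The counts of members called between regions (9, 9 and 7) were the same under every alternative except 1. With the Fmr1CRE libraries alone, 4 members were called higher in forebrain than in midbrain and 0 with a log2 fold change of at least 2. Of all 19434 genes tested there, 219 were called higher, 22 of them by at least 2. Drd1 (1.68), Drd2 (1.26), Adora2a (2.08), Tac1 (0.67) and Gpr6 (1.63) lost their call there. In that fit of 9 libraries in place of 18, 8 of the other striatal and 4 of the signalling genes were higher. The wild-type libraries alone, also 9, kept the call for all 9 members. Of the 19442 genes tested in wild type, 840 were called higher, 72 of them by at least 2. DESeq2 called 2 members between genotypes in midbrain and 1 in the interaction, where edgeR called 0, and the cause was not tested. Ppp1r1b in midbrain against hindbrain became 0.024 with no filter, 0.41 in Fmr1CRE libraries alone and 0.044 without mice 3. In forebrain, the genotype value of Ppp1r1b became -0.00082 with no filter, -0.056 without mice 3 and -0.022 in 1 fit of all libraries. In hindbrain Tac1 became 0.073 without mice 3 and Pde10a -0.0097 on total counts.

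With the replicate number as a block, 0 members were called between genotypes, and in forebrain Drd2 became -0.017, Ppp1r1b -0.069 and Rasd2 -0.0018, and Drd1 -0.085 in the summed regions. With the mouse as a block, 9, 9 and 7 members were called between regions, and no member's call changed.

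Leaving out each library in turn changed no count of members called by adjusted p, and the midbrain against hindbrain count with a log2 fold change of at least 2 was 2 to 3. Ppp1r1b in midbrain against hindbrain ran from -0.26 to 0.14. Genotype values in forebrain ran from -0.57 to 0.14 for Drd1, -0.36 to 0.39 for Drd2, -0.61 to 0.28 for Adora2a, -0.30 to 0.27 for Ppp1r1b, -0.0091 to 0.37 for Rgs9, -0.24 to 0.31 for Rasd2, -0.46 to 0.096 for Tac1, -0.46 to 0.14 for Gpr6 and -0.18 to 0.31 for Pde10a. The lowest value of each came without Fmr1CRE replicate 2. In hindbrain they ran from 0.14 to 1.27 for Drd1, -0.26 to 0.015 for Drd2, -0.37 to 0.051 for Ppp1r1b, -0.040 to 0.16 for Rasd2, -0.20 to 0.045 for Tac1 and -0.11 to 0.099 for Pde10a. In the summed regions they ran from -0.35 to 0.39 for Drd1, -0.19 to 0.37 for Drd2, -0.36 to 0.50 for Adora2a, -0.15 to 0.33 for Ppp1r1b, -0.12 to 0.35 for Rasd2, -0.15 to 0.17 for Tac1, -0.22 to 0.40 for Gpr6 and -0.090 to 0.36 for Pde10a. Of the members' fold changes under the other alternatives, 424 kept direction and side of the threshold, 12 changed sign, 5 lost a call and 2 gained one. Depth limits the hindbrain values of Gpr6 (4 to 7 reads) and Drd1 (9 to 37 reads).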

Other observations

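Cholinergic neurons include the interneurons of the striatum. Chat, the acetylcholine-synthesizing enzyme, stood at 8.67, 2.46 and 14.3 CPM in wild-type forebrain replicates 1 to 3 and at 0.83, 4.57 and 16.0 CPM in Fmr1CRE replicates 1 to 3. Slc5a7, the choline transporter, stood at 9.47, 7.98 and 13.4 CPM and at 4.58, 9.51 and 8.99 CPM. Both were lowest in Fmr1CRE replicate 1. Of 6 cholinergic markers, 1 was higher and 2 lower in forebrain than in hindbrain, and 2 were higher than in midbrain.

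Of 10 dopamine neuron markers, 10 were lower in forebrain than in midbrain, and 2 were higher and 5 lower than in hindbrain. In midbrain 7 were higher and 1 lower than in hindbrain. Of 10 cortical markers, 9 were higher and 1 lower in forebrain than in hindbrain, and 5 were higher than in midbrain. Of 10 thalamic markers, 6 were higher and 2 lower in forebrain than in hindbrain, and 1 was higher and 3 lower than in midbrain. Of 10 hypothalamic markers, 6 were higher and 2 lower in forebrain than in hindbrain, and 2 were higher than in midbrain. Of all genes, 26.4% were higher and 25.3% lower in forebrain than in hindbrain, and 9.38% higher and 9.96% lower than in midbrain. Of 6 olfactory bulb markers tested, 2 were higher and 2 lower in forebrain than in hindbrain. All 10 cerebellar and brainstem markers were lower in forebrain than in midbrain and hindbrain. None of these markers was called between genotypes in any region.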
